A study of Rattus norvegicus with 12 samples.

Results

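The lungs of rats that received cigarette smoke (CS), lipopolysaccharide (LPS) and sodium hydrosulfide (NaHS) were compared with the lungs of control rats, on 6 of the 12 arrays of the series. The comparison takes the 3 arrays labelled CS + LPS + NaHS and the 3 labelled Control, and covers all 30367 rat probes of the array. The study built a rat model of chronic obstructive pulmonary disease and asked what hydrogen sulfide does in it. The other 6 arrays are 3 of CS + LPS alone and 3 of CS + LPS with propargylglycine (PPG), an inhibitor of the enzyme that makes hydrogen sulfide from cysteine. All rats were male Sprague–Dawley rats of 8 to 12 weeks. The exposed rats breathed smoke 2 times a day until day 30, and LPS, 200 μl at 500 μg/ml, was put into the trachea on days 5 and 19. NaHS, which releases hydrogen sulfide, was injected into the peritoneum at 14 μmol/kg, 2 h before each exposure. Control rats followed the same schedule with air or saline, and the left upper lobe of every rat was taken 24 h after the last smoke. No group had NaHS alone, so the exposure and the NaHS cannot be told apart in this comparison.

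Cigarette smoke carries polycyclic hydrocarbons that bind the aryl hydrocarbon receptor, a transcription factor that switches on its own repressor. LPS, from the wall of Gram-negative bacteria, makes endothelium and resident macrophages call in neutrophils and monocytes. Glucocorticoids act through a nuclear receptor that raises a well known set of target genes in lung, and part of that set is also tied to the circadian clock, whose genes cycle over the day in most tissues.

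The scanner's processed signal of each array was divided by its 75th percentile, brought back to a shared level and taken as log2. In all, 21239 probes counted as detected, each well above background on every array of some group. A probe could thus be detected through 1 group alone, which favours a difference towards that group. All values below are these scaled log2 signals, and a difference is the mean of the 3 CS + LPS + NaHS arrays (the NaHS arrays, 1 to 3) minus that of the 3 control arrays, ± its standard error in the limma fit to all 12 arrays. A probe is said to have risen or fallen where the fold change was at least 2 and the unadjusted two-sided p under 0.05, the thresholds of the study's methods. Control array 3 lay on another slide than the other 5 arrays. Its 75th percentile was 1229 in scanner units, against 2110 to 2710 on the others. Its correlation with them over the probes was 0.945 to 0.957, while the other 5 correlated at 0.985 or more among themselves. The differences of called genes are therefore also given without control array 3, in a fit which is numerically the same fit as one with slide as a block.

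The lung markers were bright on all 6 arrays. The summed scaled signal of 6 lung epithelial markers, such as Sftpc and Scgb1a1, was 1049560, 955589 and 1444340 on the control arrays and 878170, 836557 and 883433 on the NaHS arrays, all below the controls, and none of the 6 was called. Transcripts of neighbouring tissues varied more. Myh6, the atrial heart myosin, read 3.42, 4.09 and 14.78 on the control arrays and 4.23, 13.30 and 11.54 on the NaHS arrays. Adipoq, the fat hormone adiponectin, read 3.68, 4.32 and 11.61 on the control arrays and 3.08, 5.62 and 3.51 on the NaHS arrays, and Ucp1, the uncoupling protein of brown fat, read 5.11, 4.55 and 13.24 on the control arrays and 4.40, 4.99 and 5.29 on the NaHS arrays. Control array 3 held all 3 of these transcripts at a high level, and NaHS arrays 2 and 3 held Myh6. Retn, the fat hormone resistin, read 4.26, 5.76 and 12.12 on the control arrays and 9.55, 6.49 and 6.03 on the NaHS arrays, high on control array 3 and next on NaHS array 1. None of the 8 heart and 8 fat markers detected was called in the comparison, but without control array 3 the heart genes Myh6, Sln and Fabp3 and the fat genes Retn and Car3 were called higher. Their part in the results below was not tested. In whole lobes, fewer cells of a type and less RNA per cell cannot be told apart.

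**Figure D1:**
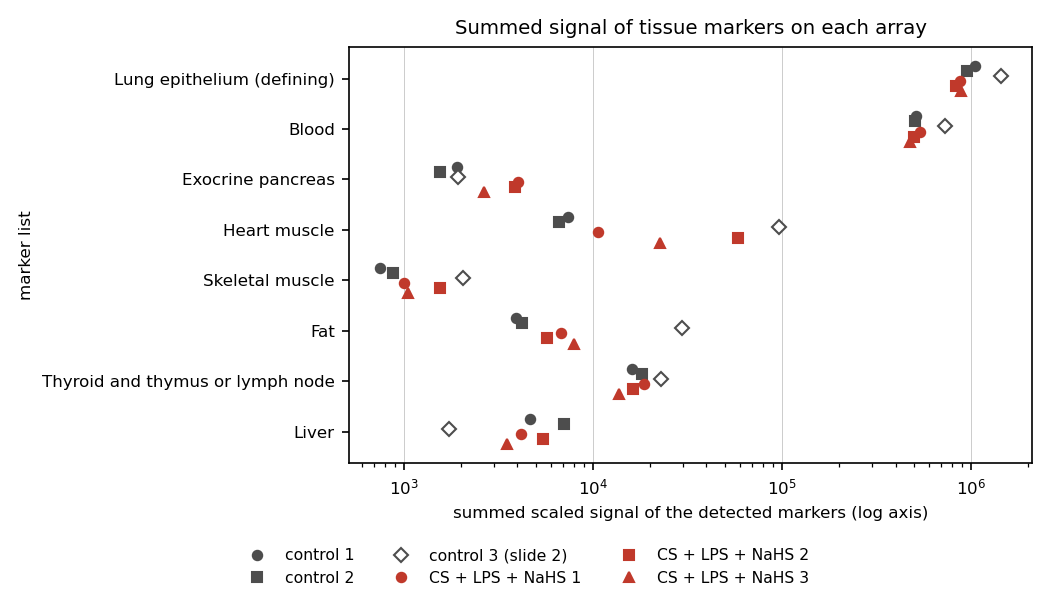
Summed scaled signal of the detected markers of lung epithelium and of 7 other tissues or blood on each of the 6 arrays, on a log axis. Heart and fat markers were highest on control array 3, and heart markers were also raised on NaHS arrays 2 and 3.

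Compared with the control, 567 of the 21239 probes (2.67%) were called in the CS + LPS + NaHS group, 276 higher (1.3%) and 291 lower (1.37%). The rises held some macrophage, neutrophil and B cell genes, from lists chosen with earlier results of these data known. They also held the aryl hydrocarbon receptor repressor, a secretoglobin and a β-defensin. The falls held glucocorticoid targets, 2 clock genes and the enzyme Cbs. After Benjamini-Hochberg adjustment over all probes 21 probes (0.0989%) passed in limma, 16 higher and 5 lower, and 17 of them had a gene symbol. That count fell to 0 or 1 when any of the NaHS arrays was left out. Without control array 3, 412 probes were called (1.94%), 267 higher and 145 lower, and 15 passed after adjustment. Of the 276 rises 138 (50%) and of the 291 falls 100 (34.4%) were still called without control array 3, and all 567 kept their direction. On 228 of the 291 falls (78.4%) control array 3 was the highest of the 3 controls, and on 179 of the 276 rises (64.9%) it was the lowest. Called or not, 2701 of the 21239 probes (12.7%) had all NaHS arrays above all controls. On 2561 (12.1%) all NaHS arrays lay below all controls. These shares are the background for every list count and every separation given below.

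**Figure D2:**
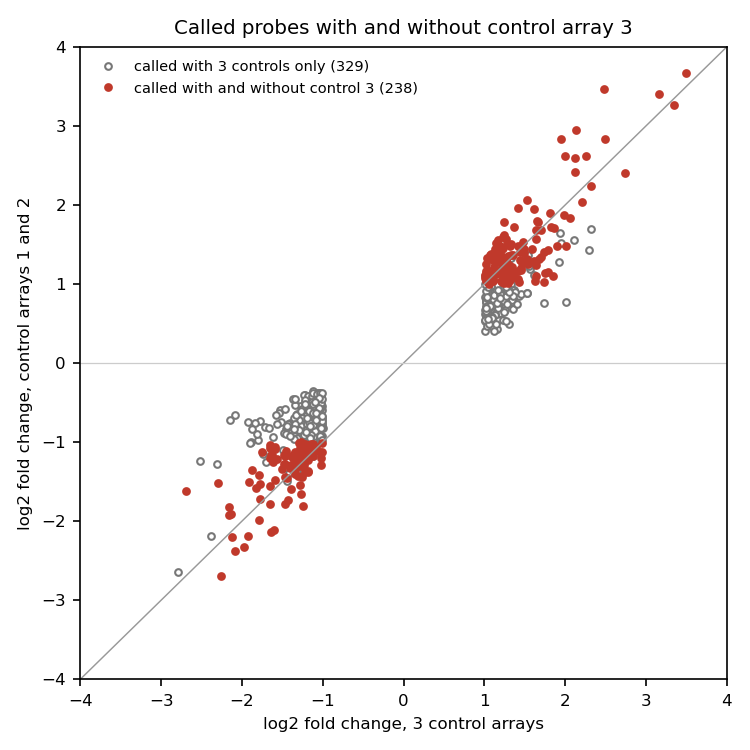
Log2 fold change of each called probe with 3 control arrays (x axis) and with control arrays 1 and 2 alone (y axis), with the line of equal values. The 238 filled points were called both ways and the 329 open points only with 3 controls, and 1 RT1-Bb probe lies beyond the axes at -10.03.

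The 12 largest rises and 12 largest falls were taken among called genes that all 6 arrays measured well above background and that did not overlap between the groups, a choice that fixes their separation. The rises ran from 1.59 for Hk3, the hexokinase of myeloid cells, to 2.74 for Fcnb, the pattern-recognition lectin ficolin B. The falls ran from -1.75 for C4bpb, a chain of the complement regulator C4b-binding protein, to -2.79 for Zbtb16, a zinc finger transcription factor. Every rise except Retnla and every fall except Zbtb16 and Slc39a5 was still called without control array 3.

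**Figure D3:**
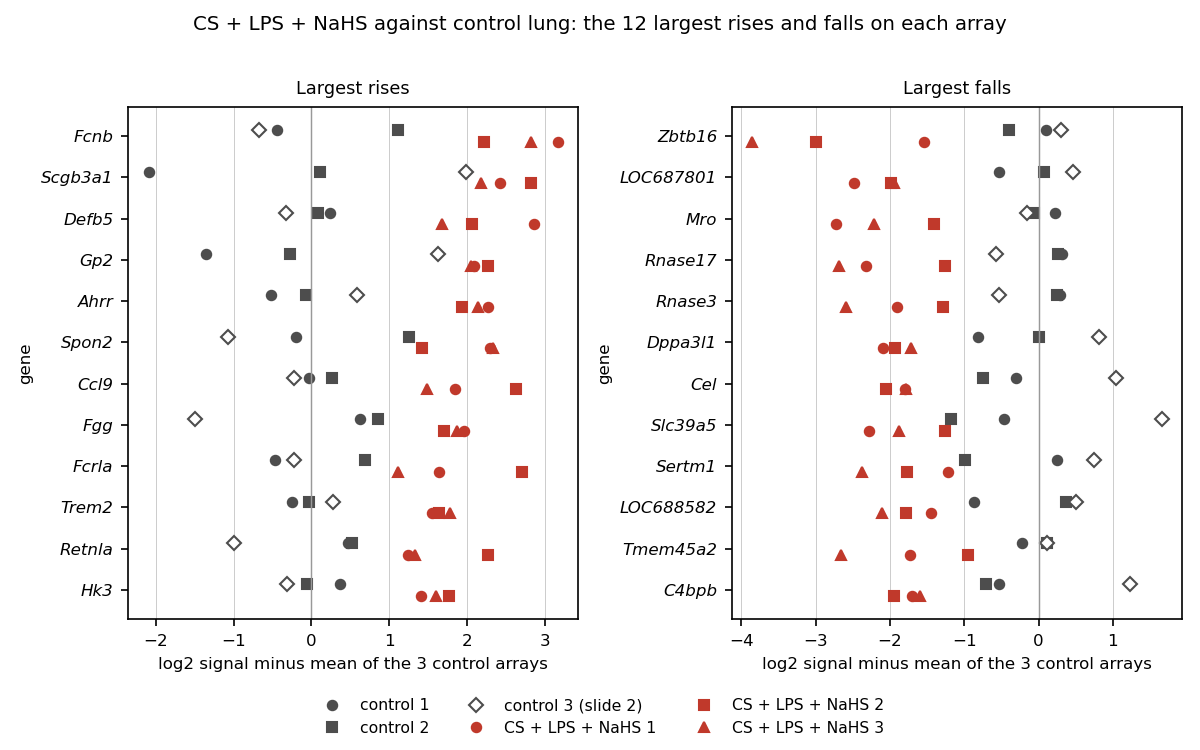
Log2 signal of the 12 genes with the largest rises and the 12 with the largest falls on each array, minus the mean of the 3 control arrays. The control arrays of a gene are in grey, with control array 3 as an open diamond, and the NaHS arrays in red lie to one side of them in every row.

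Several macrophage genes rose in the CS + LPS + NaHS group. Of 16 macrophage genes detected, 5 rose and none fell, with a median difference of 0.77 against 0.00 over all detected probes, where 1.3% rose. Trem2, a lipid receptor of macrophages, read 10.60, 10.83 and 11.13 on the control arrays and 12.40, 12.49 and 12.63 on the NaHS arrays. Cd68, a lysosomal glycoprotein of macrophages, read 12.46, 12.69 and 11.80 on the control arrays and 13.54, 13.88 and 13.78 on the NaHS arrays. Gpnmb, a glycoprotein of macrophages laden with lipid, read 13.59, 13.27 and 12.76 on the control arrays and 14.29, 14.89 and 15.04 on the NaHS arrays. All 3 NaHS arrays lay above all 3 control arrays for each of these genes. Trem2 rose by 1.66 ± 0.23 (3.15-fold, limma adjusted p = 0.036), Gpnmb by 1.53 ± 0.32 (limma adjusted p = 0.12) and Cd68 by 1.42 ± 0.26 (limma adjusted p = 0.089), and without control array 3 the differences were 1.80, 1.31 and 1.16.

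Msr1, a scavenger receptor, rose by 1.11 ± 0.37 (limma adjusted p = 0.202), or 1.04 without control array 3. Retnla, a secreted protein of alternatively activated macrophages, read 12.14, 12.18 and 10.68 on the control arrays and 12.91, 13.94 and 13.00 on the NaHS arrays. It rose by 1.62 ± 0.63 (limma adjusted p = 0.25), but control array 3 was the lowest array, and without it the difference was 1.12 and did not pass the p threshold. The list did not move as 1 block. Cd163, the haemoglobin scavenger receptor of resident macrophages, read 8.96, 8.90 and 9.10 on the control arrays and 7.78, 8.17 and 7.36 on the NaHS arrays, lower on every NaHS array but short of the threshold (limma adjusted p = 0.3). Mrc1, Arg1 and Nos2, which mark other states of the macrophage, had differences of 0.64, 0.54 and 0.06 and were not called. Spp1, osteopontin, had a difference of 1.60 and read 7.53, 5.63 and 6.57 on the control arrays and 8.80, 8.63 and 7.09 on the NaHS arrays.

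Several of the smallest p-values belonged to leucocyte genes outside the list. Stap1, an adaptor protein of haematopoietic cells, read 6.09, 6.0 and 5.75 on the control arrays and 7.58, 7.41 and 7.32 on the NaHS arrays. It rose by 1.49 ± 0.14, or 1.39 without control array 3, and had the lowest adjusted p of all probes (limma adjusted p = 0.00767). Hk3 rose by 1.59 ± 0.19. Slamf8 and Slamf6, receptors of the SLAM family on leucocytes, rose by 1.27 ± 0.18 and 1.78 ± 0.26, and Tfec, a transcription factor of macrophages, by 1.29 ± 0.18. Their adjusted p in limma was 0.036 each. For all 4 the NaHS arrays lay above the controls, and without control array 3 the differences were 1.44, 1.30, 1.43 and 1.36. Slamf6 was well above background on 2 of the 3 control arrays and Tfec on 1. The other genes past the adjusted threshold on the rising side were Ahrr, Ccl9, Lcn2, Sele and Trem2, described with their groups, S100a3, a calcium-binding protein (1.16), Clcn4, a chloride and proton exchanger (1.34), Lrrn4cl (1.22) and Map2k6, a kinase upstream of p38, whose difference of 0.94 was under 2-fold. Without control array 3 these 4 differences were 1.14, 1.22, 1.13 and 0.93, and S100a3 and Clcn4 were well above background on 2 of the 3 control arrays.

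Some neutrophil granule transcripts rose, with much spread between the NaHS arrays for others. Of 12 detected, 4 rose, none fell and all 12 had a difference above 0, with a median of 1.03. Over all 21239 detected probes 1.3% rose and 10705 had a difference above 0. Mmp9 and Ngp were not well above background on every control array and counted as detected through exposed groups. That filter favours rises, so the counts and the median of this list are not a test. Lcn2, the iron-binding lipocalin of neutrophils and airway epithelium, read 12.33, 12.21 and 12.43 on the control arrays and 13.70, 13.87 and 13.84 on the NaHS arrays. Fcnb read 8.52, 10.08 and 8.29 on the control arrays and 12.13, 11.18 and 11.79 on the NaHS arrays. The arrays of each group lay close together for Lcn2, which rose by 1.48 ± 0.20 (2.78-fold, limma adjusted p = 0.036). Fcnb rose by 2.74 ± 0.60 (6.67-fold, limma adjusted p = 0.121), and its NaHS arrays all lay above the controls. Without control array 3 the differences were 1.53 and 2.40. Ngp, neutrophilic granule protein, rose by 1.54 ± 0.69 and lost its call without control array 3 (1.37). It was well above background on 1 of the 3 control arrays. Mmp9, the gelatinase of neutrophils, was not well above background on any control array. It was at least 2.07-fold higher in the NaHS group (limma adjusted p = 0.243), a bound that covers the background only. Its call was also lost without control array 3 (0.90), and NaHS array 3 lay within the range of the controls.

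The α-defensins of the neutrophil were high on 1 NaHS array only. Defa5 read 3.28, 5.75 and 5.55 on the control arrays and 9.77, 5.09 and 4.82 on the NaHS arrays. Np4, neutrophil peptide 4, read 3.66, 6.21 and 6.04 on the control arrays and 10.10, 5.40 and 3.97 on the NaHS arrays, and RatNP-3b, another neutrophil defensin, read 5.19, 6.22 and 7.10 on the control arrays and 9.86, 6.01 and 4.89 on the NaHS arrays. NaHS array 1 stood 3 or more log2 units above NaHS arrays 2 and 3 for each, and none of these genes was called. S100a8 and S100a9, the subunits of calprotectin, had differences of 0.94 and 0.78 and were not called either.

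Among signals that draw leucocytes into tissue, the change lay in few genes. Ccl9, a chemokine of the macrophage inflammatory protein family, read 9.93, 10.23 and 9.73 on the control arrays and 11.81, 12.59 and 11.46 on the NaHS arrays. It rose by 1.99 ± 0.29 (3.97-fold, limma adjusted p = 0.036), or 1.87 without control array 3, and was the only one of 15 CC chemokines called. Of the 15, 12 had a difference above 0, as had 10705 of all 21239 detected probes. Ccl2, the monocyte chemoattractant, had a difference of 0.58. Of 7 neutrophil-attracting CXC chemokines, receptors and related genes, Cxcr1, a receptor for them, rose by 1.34 ± 0.35 and the platelet chemokine Ppbp by 1.02 ± 0.42, and neither kept its call without control array 3 (0.85 and 0.91). Ppbp was well above background on 2 of the 3 control arrays. Cxcl1 and Cxcl2, the main rat ligands of that family, had differences of 0.63 and 0.12. None of 11 interleukins, TNF and related cytokines was called. The largest difference among them was 0.93 for Il1rn, the antagonist of interleukin 1, followed by 0.85 for Il18. For both the NaHS arrays lay above all controls, which was so for 12.7% of all detected probes. Il1b and Tnf had differences of 0.07 and 0.60.

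Sele, the E-selectin that activated endothelium shows to rolling leucocytes, read 4.69, 5.01 and 4.61 on the control arrays and 6.62, 7.23 and 7.43 on the NaHS arrays. It was not well above background on any control array and was at least 5.01-fold higher in the NaHS group (limma adjusted p = 0.036), and it was also called without control array 3. Of 14 endothelial and adhesion genes, Cdh5, the cadherin of endothelial junctions, also rose, by 1.08 ± 0.29 (limma adjusted p = 0.147), and fell just under 2-fold without control array 3 (0.94). Pecam1, another adhesion protein of endothelium, read 15.04, 15.11 and 15.49 on the control arrays and 14.55, 14.61 and 14.70 on the NaHS arrays, a difference of -0.59 that was under 2-fold. Icam1 and Vcam1, the ligands of leucocyte integrins, had differences of 0.62 and 0.09.

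Some B cell and cytotoxic cell genes rose too. Of 16 T and B cell genes, 5 rose and none fell, with a median of 0.86 that dropped to 0.33 without control array 3. Over all detected probes 1.3% rose and the median was 0.00 with 3 controls. Ms4a1, the CD20 antigen of B cells, read 6.49, 7.0 and 7.09 on the control arrays and 8.02, 8.17 and 7.88 on the NaHS arrays. Cd79b, a chain of the B cell receptor complex, read 9.91, 10.65 and 9.70 on the control arrays and 11.28, 11.36 and 11.27 on the NaHS arrays. The NaHS arrays lay above all control arrays for both. Ms4a1 rose by 1.16 ± 0.23, Cd79b by 1.22 ± 0.29 and Cd79a, the other chain, by 1.10 ± 0.30 (limma adjusted p = 0.106, 0.135 and 0.151), and all 3 were called without control array 3 (1.28, 1.03 and 1.05). Fcrla, an Fc receptor-like protein of B cells that is not in the list, rose by 1.83 ± 0.45, or 1.72 without control array 3. Nkg7 and Prf1, the latter the pore-forming protein perforin of killer cells, rose by 1.20 ± 0.34 and 1.08 ± 0.37 with 3 controls and fell under 2-fold without control array 3 (0.82 and 0.68). The T cell genes Cd3e and Cd4 had differences of 0.14 and 0.31. The signal of 5 markers of thyroid and of thymus or lymph node was summed. It was 16176, 18308 and 22961 on the control arrays and 18619, 16260 and 13816 on the NaHS arrays, which overlap. Cr2, a complement receptor of B cells among those 5, rose by 1.12 ± 0.40. It read 5.73 on control array 1, against 13.28 for Ccl21, another of the 5, so the sum says little on B cells. The groups overlapped for Cr2, and its call was lost without control array 3 (0.79).

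**Figure D4:**
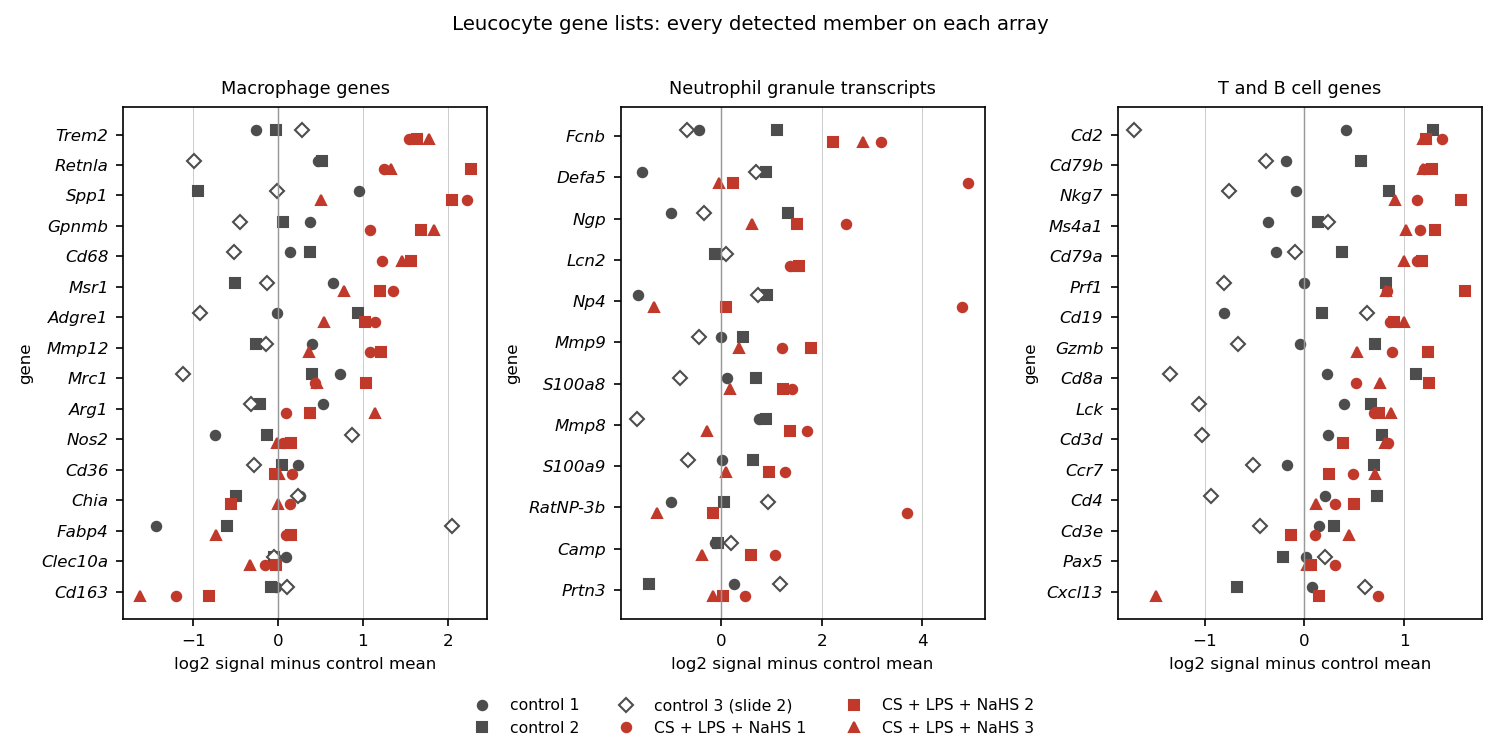
Log2 signal of every detected gene of the macrophage, neutrophil granule and T and B cell lists on each array, minus the mean of the 3 control arrays. The NaHS arrays lie to the right of the controls for Trem2, Cd68, Lcn2 and Ms4a1, and the α-defensins Defa5, Np4 and RatNP-3b are high on NaHS array 1 alone.

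The aryl hydrocarbon receptor repressor was among the firmest rises, while the other targets of that receptor were not called. Ahrr read 5.59, 6.05 and 6.71 on the control arrays and 8.39, 8.06 and 8.27 on the NaHS arrays. Every NaHS array lay at least 1 log2 unit above every control array, and Ahrr rose by 2.12 ± 0.31 (4.34-fold, limma adjusted p = 0.036), or by 2.41 without control array 3. Of 8 targets detected it alone was called. Cyp1a1, the classical target, which oxidises polycyclic hydrocarbons, read 9.73, 8.56 and 9.74 on the control arrays and 8.93, 9.55 and 8.91 on the NaHS arrays, with overlap and a difference of -0.21. Cyp1b1, a related enzyme, read 7.24, 6.84 and 7.28 on the control arrays and 7.99, 7.43 and 7.79 on the NaHS arrays. Its NaHS arrays lay above its controls and the difference was 0.62 (limma adjusted p = 0.26), under 2-fold. Tiparp and Nqo1 had differences of -0.10 and -0.05.

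The promoters of Ahrr and Cyp1b1 are shown because the 2 genes share the core letters bound by the receptor and differ in their response. Each run holds the 300 bases around the gene's start, mostly before it, 5′ to 3′ on the gene's strand, from RefSeq on GRCr8, and capitals mark GCGTG on either strand, which was in 29.7% of all 33469 promoters of that length. The match is a description of letters and not of binding.
Ahrr, chr1:30821969-30822268, plus strand: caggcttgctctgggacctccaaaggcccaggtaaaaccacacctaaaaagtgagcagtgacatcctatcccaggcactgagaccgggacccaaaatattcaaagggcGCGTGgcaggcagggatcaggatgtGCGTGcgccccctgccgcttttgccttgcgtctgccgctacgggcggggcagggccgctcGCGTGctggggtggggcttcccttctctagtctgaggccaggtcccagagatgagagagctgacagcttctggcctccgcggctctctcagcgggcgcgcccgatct
Cyp1b1, chr6:21094315-21094614, plus strand: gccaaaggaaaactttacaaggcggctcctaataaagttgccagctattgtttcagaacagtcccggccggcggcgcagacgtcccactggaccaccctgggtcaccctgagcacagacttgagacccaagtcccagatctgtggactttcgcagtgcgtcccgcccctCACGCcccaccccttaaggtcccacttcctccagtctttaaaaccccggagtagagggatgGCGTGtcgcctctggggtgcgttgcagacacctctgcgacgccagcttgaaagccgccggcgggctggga
Ahrr holds the letters at 3 places and Cyp1b1 at 2. Of the 6 promoters matched to detected genes of the list, 5 hold them.

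Several known targets of the glucocorticoid receptor fell in the CS + LPS + NaHS group. Of 17 detected, 4 fell and 1 rose, where 1.37% of all detected probes fell, and the NaHS arrays of 8 lay below all control arrays, which was so for 12.1% of all detected probes. Fkbp5, the co-chaperone that damps the receptor, read 13.93, 13.15 and 13.15 on the control arrays and 11.98, 11.95 and 11.34 on the NaHS arrays. Tsc22d3, the leucine zipper protein GILZ, read 14.84, 14.23 and 15.11 on the control arrays and 13.43, 13.72 and 13.39 on the NaHS arrays. Zbtb16 read 9.48, 8.98 and 9.68 on the control arrays and 7.84, 6.39 and 5.53 on the NaHS arrays. The groups did not overlap for these genes, and the spread of Zbtb16 was widest among the NaHS arrays. Fkbp5 fell by 1.66 ± 0.44 (3.15-fold), Tsc22d3 by 1.22 ± 0.24 and Zbtb16 by 2.79 ± 1.03, and none of the 3 passed after adjustment (limma adjusted p = 0.145, 0.106 and 0.229). Without control array 3 the differences were -1.79, -1.03 and -2.65, and that of Zbtb16 no longer passed the p threshold.

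Pdk4, the kinase that turns off pyruvate dehydrogenase, fell by 1.23 ± 0.41, or by 0.91 without control array 3, where it was not called. Errfi1, Klf9, Angptl4 and Cidec had differences of -0.87, -0.57, -1.06 and -0.82. None was called, and for each all NaHS arrays lay below all control arrays. Cidec is also in the fat marker list, whose summed signal was highest on control array 3. The receptor gene itself, Nr3c1, read 9.89, 9.91 and 9.44 on the control arrays and 9.73, 9.79 and 9.65 on the NaHS arrays, and Sgk1, Dusp1 and Per1, which respond to the hormone fast, had differences of 0.12, -0.14 and -0.08. The gene of the list that rose was Lcn2. The receptor's half-site letters TGTTCT were in none of the 18 RefSeq promoters of the list's genes on either strand, against 20.7% of all promoters, which says only that these letters are not in these windows.

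Of 15 circadian clock genes, 2 fell and 1 rose, and the rest were not called. Over all detected probes 1.37% fell and 1.3% rose. Cry1, a repressor of the clock, read 10.95, 10.97 and 10.82 on the control arrays and 9.46, 10.16 and 9.58 on the NaHS arrays. Per2, its partner, read 9.99, 9.58 and 11.12 on the control arrays and 8.06, 9.36 and 8.17 on the NaHS arrays. Nr1d1, the nuclear receptor Rev-erbα that represses Bmal1, read 7.70, 8.11 and 9.53 on the control arrays and 9.55, 10.25 and 10.13 on the NaHS arrays. The groups did not overlap for any of these genes, though control array 3 was the outermost control for Per2, away from the NaHS arrays, and the nearest for Nr1d1. Cry1 fell by 1.18 ± 0.25 (limma adjusted p = 0.121) and by 1.23 without control array 3. Per2 fell by 1.70 ± 0.58 (limma adjusted p = 0.206), with -1.26 and no call without that array. Nr1d1 rose by 1.53 ± 0.52 (limma adjusted p = 0.207) and by 2.07 without it. Bmal1 read 9.81, 10.64 and 7.70 on the control arrays and 9.99, 8.76 and 9.91 on the NaHS arrays, and Dbp, an output gene of the clock, read 13.24, 13.10 and 14.95 on the control arrays and 13.39, 15.09 and 13.91 on the NaHS arrays. Both overlapped between the groups, with control array 3 lowest of all arrays for Bmal1. The hour at which each rat was killed is not given in the sources used here.

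The promoter of Nr1d1 is shown because the gene moved against Per2 and Cry1. Capitals mark the E-box CACGTG, bound by the activators of the clock, which was in 6.42% of all promoters and in 4 of the 16 RefSeq promoters of the list's genes. RefSeq gives Nr1d1 a further promoter without these letters, and the RefSeq promoter of Per2 does not hold them. Only the exact letters CACGTG were searched, so other forms of the E-box were not counted. The match describes letters and not binding.
Nr1d1, chr10:84229405-84229704, minus strand: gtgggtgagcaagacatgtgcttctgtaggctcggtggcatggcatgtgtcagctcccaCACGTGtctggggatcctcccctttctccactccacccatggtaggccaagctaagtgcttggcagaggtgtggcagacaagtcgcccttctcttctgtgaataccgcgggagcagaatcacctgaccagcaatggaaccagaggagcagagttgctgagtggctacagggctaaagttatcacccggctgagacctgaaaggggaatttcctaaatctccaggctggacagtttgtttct

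**Figure D5:**
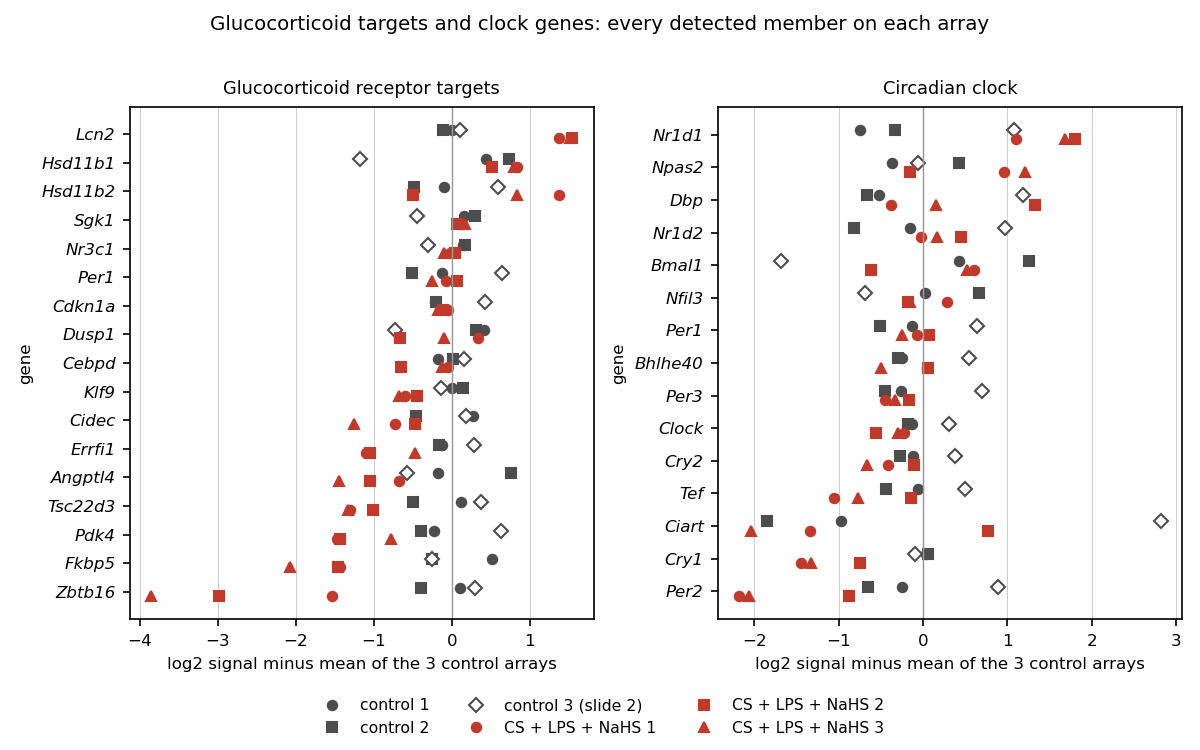
Log2 signal of every detected glucocorticoid target and circadian clock gene on each array, minus the mean of the 3 control arrays. The NaHS arrays of Fkbp5, Tsc22d3, Zbtb16 and Pdk4 lie below the controls, and those of Nr1d1 lie above them and those of Cry1 and Per2 below.

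In airway epithelium 1 of 12 secretory proteins rose. Scgb3a1, a secretoglobin of the larger airways, read 9.57, 11.77 and 13.65 on the control arrays and 14.09, 14.48 and 13.85 on the NaHS arrays. The controls spread over 4 log2 units and the NaHS arrays under 1, and Scgb3a1 rose by 2.48 ± 0.80 (5.56-fold, limma adjusted p = 0.196), or by 3.47 without control array 3, its highest control. Bpifa1, an airway fluid protein, read 4.99, 6.26 and 11.44 on the control arrays and 6.50, 10.64 and 11.52 on the NaHS arrays and overlapped, and without control array 3, the highest control, it passed both thresholds (3.93). Scgb1a1, the main club cell protein, had a difference of -0.52 and was not called. The mucin Muc5b was not well above background on any control array and was at least 2.24-fold higher in the NaHS group, but it did not pass the p threshold (limma adjusted p = 0.424). Gp2, a membrane glycoprotein of epithelium that samples bacteria, read 6.59, 7.66 and 9.57 on the control arrays and 10.04, 10.21 and 9.99 on the NaHS arrays and rose by 2.14 ± 0.68, or 2.95 without control array 3. Of 10 motile cilia genes, Foxj1, the master regulator of cilia, fell by 1.10 ± 0.45. It read 11.41, 11.43 and 13.43 on the control arrays and 11.04, 10.89 and 11.04 on the NaHS arrays, and without control array 3 the difference was -0.43 and was not called. The median of the cilia list was -0.27 with 3 controls and 0.01 without control array 3.

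Antimicrobial and complement genes rose in part. Of 7 antimicrobial genes 3 rose, where 1.3% of all detected probes rose. Defb5, a β-defensin, read 7.38, 7.23 and 6.81 on the control arrays and 10.01, 9.21 and 8.82 on the NaHS arrays, with each NaHS array above each control. It rose by 2.20 ± 0.40 (4.61-fold, limma adjusted p = 0.0923), or 2.04 without control array 3. Defb4, a relative, rose by 1.0 ± 0.31 and lost its call without that array (0.63). Of 15 complement genes 2 rose, against the same 1.3%. C6, a component of the membrane attack complex, read 8.40, 9.39 and 8.71 on the control arrays and 10.95, 11.30 and 9.15 on the NaHS arrays, with NaHS array 3 within the range of the controls. It rose by 1.64 ± 0.60 (limma adjusted p = 0.225), or 1.57 without control array 3. Cfp, properdin, which stabilises the C3 convertase, rose by 1.0 ± 0.20 and lost its call without that array (0.83). C3 had a difference of -0.18. Fgg, the γ chain of fibrinogen, read 11.39, 11.62 and 9.27 on the control arrays and 12.73, 12.47 and 12.64 on the NaHS arrays and rose by 1.85 ± 0.48, or 1.10 without control array 3, its lowest array.

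Of 5 enzymes that form hydrogen sulfide or its precursors, Cbs, cystathionine β-synthase, fell. It read 8.39, 9.14 and 8.17 on the control arrays and 7.05, 6.67 and 7.79 on the NaHS arrays. The groups did not overlap, and Cbs fell by 1.40 ± 0.43 (2.63-fold, limma adjusted p = 0.185), or by 1.59 without control array 3. Cth, cystathionine γ-lyase, the target of PPG, read 7.69, 7.72 and 6.10 on the control arrays and 7.46, 7.09 and 7.25 on the NaHS arrays, with a difference of 0.09. Mpst, the third enzyme of the kind, had a difference of 0.31. None of the 4 enzymes that oxidise hydrogen sulfide was called, and Sqor, the quinone oxidoreductase that starts that path, read 13.47, 13.63 and 12.82 on the control arrays and 13.58, 13.59 and 13.49 on the NaHS arrays.

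Of 20 antioxidant enzymes and targets of the transcription factor NRF2, 1 was called. Cat, catalase, read 9.80, 9.68 and 8.37 on the control arrays and 10.28, 10.51 and 10.52 on the NaHS arrays. Control array 3 was the lowest of the arrays, and Cat rose by 1.16 ± 0.31 (limma adjusted p = 0.146), with a difference of 0.70, under 2-fold, without it. Mt1, a metallothionein, and Gpx1, a glutathione peroxidase, had differences of 0.80 and 0.53. For both the NaHS arrays lay above all controls, which was so for 12.7% of all detected probes. Hmox1, Nqo1, Gclc, Sod1 and Sod2 had differences of 0.28, -0.05, -0.01, 0.00 and 0.13. The median of the list was 0.09.

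Matrix, integrin and death-related genes gave 1 or 2 calls a list. Loxl1, a lysyl oxidase that cross-links elastin, rose by 1.05 ± 0.30, and was under 2-fold without control array 3 (0.84). Eln, elastin, and Col1a1, a chain of type I collagen, had differences of 0.89 and 0.88 and were not called. For both all NaHS arrays lay above the controls, which was so for 12.7% of all detected probes. Without control array 3 Col1a1 passed both thresholds (1.12). Itga2, the collagen-binding integrin chain, read 6.95, 6.58 and 7.12 on the control arrays and 7.64, 8.47 and 8.08 on the NaHS arrays and rose by 1.18 ± 0.30 (limma adjusted p = 0.141), or 1.30 without control array 3. Fas, the death receptor, rose by 1.10 ± 0.26 and Bcl2a1, a survival protein of leucocytes, by 1.09 ± 0.34, and neither reached 2-fold without control array 3 (0.77 and 0.60). RT1-DMa, which loads class II molecules, and Slc11a1, a metal transporter of phagosomes, rose by 1.0 ± 0.26 and 1.13 ± 0.38, with 0.67 and 0.60 without that array. Mmp12, the elastase of macrophages, had a difference of 0.89 (limma adjusted p = 0.213), under 2-fold.

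Other lists held no called gene. None of 13 surfactant and alveolar type 2 genes, 8 alveolar type 1 genes, 11 contractile genes of smooth muscle, 16 immediate early genes, 16 chaperones and stress genes of the endoplasmic reticulum, 13 proliferation genes, 10 mast cell genes and 13 prostaglandin and leukotriene enzymes was called. Sftpc, surfactant protein C, read 18.63, 18.51 and 19.39 on the control arrays and 18.46, 18.17 and 18.34 on the NaHS arrays, a difference of -0.52. Of the 16 immediate early genes 15 had a difference below 0, with a median of -0.43 that was -0.36 without control array 3, and the NaHS arrays of 4 lay below all controls. Over all 21239 detected probes 10534 had a difference below 0, and on 12.1% the NaHS arrays lay below all controls. Junb, an immediate early gene, had a difference of -0.73. Lamp3, a lamellar body protein of type 2 cells, had a difference of 0.71. Its NaHS arrays lay above all controls, which was so for 12.7% of all detected probes. Atf4, a regulator of the stress response, had a difference of -0.59. The cell cycle gene Pcna read 12.31, 12.29 and 11.81 on the control arrays and 12.31, 12.15 and 12.01 on the NaHS arrays.

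Further falls lay outside these lists. Rnase3 and Rnase17, both of the ribonuclease A family, read 11.06, 11.02 and 10.24 on the control arrays and 8.87, 9.49 and 8.18 on the NaHS arrays, and 8.54, 8.48 and 7.65 on the control arrays and 5.89, 6.97 and 5.54 on the NaHS arrays. They fell by 1.93 ± 0.65 and 2.09 ± 0.70, with -2.19 and -2.38 without control array 3, and whether their probes share signal was not tested. LOC687801 read 7.42, 8.04 and 8.42 on the control arrays and 5.47, 5.98 and 6.01 on the NaHS arrays and fell by 2.14 ± 0.27 (limma adjusted p = 0.036), or by 1.91 without control array 3, the fall with the lowest p among genes with a symbol. Klf5, a Krüppel-like factor of epithelium, read 11.24, 11.27 and 11.59 on the control arrays and 10.42, 10.45 and 10.56 on the NaHS arrays, a difference of -0.89 that passed after adjustment (limma adjusted p = 0.0366) and was under 2-fold, as was that of Rnf39 (-1.0), with -0.78 and -0.98 without control array 3. Mro, Dppa3l1, Tmem45a2, Sertm1 and LOC688582 fell by 1.78 to 2.12, and by 1.42 to 2.20 without control array 3. Slc39a5, a zinc transporter, fell by 1.80, and by 0.97 without control array 3.

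Enzymes of the pancreas split. Ctrb1, chymotrypsinogen, rose by 1.37 ± 0.43 and Cela1, an elastase also made outside the pancreas, by 1.0 ± 0.40, while Cel, carboxyl ester lipase, fell by 1.88 ± 0.45. Ctrb1 read 9.39, 9.24 and 10.37 on the control arrays and 11.32, 11.28 and 10.51 on the NaHS arrays, with all NaHS arrays above the controls, and Cel read 6.92, 6.47 and 8.26 on the control arrays and 5.42, 5.16 and 5.43 on the NaHS arrays. Without control array 3 the differences of Ctrb1 and Cel were 1.72 and -1.36. Of 10 pancreas markers listed 4 were detected, and their summed signal was 1923, 1556 and 1949 on the control arrays and 4034, 3884 and 2677 on the NaHS arrays, which do not overlap. Ctrb1 and Cela1, by far the brightest on the NaHS arrays, make up most of that sum, so it largely repeats their rises. Cela1 lost its call without control array 3 (0.40).

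A probe of RT1-Bb gave the largest difference among the called probes, and was singled out after its values were seen. RT1-Bb encodes a chain of a class II molecule of the rat's histocompatibility complex, a polymorphic locus, and has 2 detected probes. On 1 of them the readings were 13.77, 14.20 and 13.73 on the control arrays, 2.85, 6.44 and 2.31 on the NaHS arrays, 2.65, 2.79 and 3.12 on the CS + LPS arrays and 14.33, 14.20 and 2.96 on the CS + LPS + PPG arrays. Its signal was thus either high or near background, with 1 of the NaHS arrays well above background, and fell by 10.03 in the comparison (limma adjusted p = 0.138). The other probe read 13.79, 13.93 and 13.29 on the control arrays and 14.64, 14.53 and 14.64 on the NaHS arrays, a difference of 0.93. The probes disagree in direction, so no direction is given for the gene. Fam111a, also singled out after its values were seen, was high or low by array in the same way on both of its probes, with 10.84, 10.39 and 4.67 on the control arrays and 5.15, 5.75 and 4.09 on the NaHS arrays on 1 of them, and was not called.

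The genes that the study singled out for apoptosis, oxidative stress or inflammation were chosen among genes that differed in this same series. They are not independent evidence. Of 14 detected, 4 rose, C6, Ctrb1 and Mnda among them, where 1.3% of all detected probes rose. Mnda, a myeloid nuclear protein, read 9.77, 10.08 and 9.36 on the control arrays and 11.19, 11.71 and 10.01 on the NaHS arrays and rose by 1.23 ± 0.39, or 1.04 without control array 3, with NaHS array 3 within the range of the controls. Ptgs2, the inducible cyclooxygenase, read 2.84, 4.16 and 6.14 on the control arrays and 5.48, 5.55 and 5.86 on the NaHS arrays. Control array 3 lay above all NaHS arrays, and the difference was 1.25 (limma adjusted p = 0.375). Control array 3 was also the only control well above background. Without it the difference was 2.13 and passed both thresholds, but that difference rests on control readings not well above background. Igfbp3, a carrier of insulin-like growth factors, had a difference of -0.94 with no overlap, just under 2-fold, and passed it without control array 3 (-1.0). Ppargc1a, a coactivator of mitochondrial genes, had a difference of 0.32. Itgb1 and Kcnma1 each had 2 probes that differed in direction, with 0.12 and -0.14 for Itgb1 and 0.23 and -0.21 for Kcnma1, none of them called, and the second Kcnma1 probe was not well above background on any control array.

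The same genes were read in the other exposed groups, which share the 3 control arrays with this comparison, so that the differences from control are given side by side. In CS + LPS 969 of the 21239 probes (4.56%) passed the fold and p thresholds against control and in CS + LPS + PPG 930 (4.38%). Ahrr differed from control by 2.12 with NaHS, 2.03 in CS + LPS and 1.77 in CS + LPS + PPG, Lcn2 by 1.48, 1.42 and 1.77, Fkbp5 by -1.66, -1.76 and -1.22, and Cbs by -1.40, -1.16 and -1.17. In all these genes the 3 exposed groups lay on the same side of the controls. For Cdh5 the differences were 1.08, -0.37 and 0.04, for Itga2 1.18, -0.16 and 0.59, and for Rnase17 -2.09, -0.41 and -0.57. Rnase17 read 6.20, 8.43 and 8.82 on the CS + LPS arrays and 7.86, 8.59 and 6.51 on the CS + LPS + PPG arrays. CS + LPS array 1 and CS + LPS + PPG array 3 thus lay within the range of the NaHS arrays, for Rnase3 also. For Itga2, CS + LPS + PPG array 1 did so at 8.16.

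The exposed groups were then tested against each other, which leaves the controls out. The NaHS and PPG arrays lay on 1 slide. Between them 111 of the 21239 probes (0.523%) passed the fold and p thresholds and none passed after adjustment in limma. Of the 69 called genes named by the rule 7 had an unadjusted p under 0.05 at any fold. That threshold is looser than the one for the 111 probes. The share of all probes that pass it was not counted, so the count has no background to be read against. The 69 genes were chosen on these same NaHS arrays, so this is not an independent test of them. Among the 7 were Trem2, lower with NaHS (-0.74, limma adjusted p = 0.563), and Cdh5 and Spon2, a matrix protein, both higher (1.04 and 1.94, limma adjusted p = 0.563 and 0.563). Against CS + LPS, whose arrays all lay on the other slide, 361 probes (1.7%) passed the thresholds and 126 passed after adjustment, and slide and group cannot be told apart there. Of the 69 genes 13 had an unadjusted p under 0.05, again at any fold and with the share of all probes not counted. Ctrb1 alone passed after adjustment (difference 2.39, limma adjusted p = 0.0385). Cdh5 (1.45, limma adjusted p = 0.061) and Itga2 (1.34, limma adjusted p = 0.0881) came next by adjusted p among the called genes. For Ahrr, Lcn2, Fkbp5 and Cbs the difference from CS + LPS was 0.09, 0.06, 0.10 and -0.24, each with limma adjusted p = 0.94 or more, which does not show that the groups were alike.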

How the data were processed

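Lung RNA with an RNA integrity number above 7 was hybridised to 1-colour Agilent rat arrays, 12 arrays in 4 groups of 3, on 2 slides. The intensities were deposited as scanner output, and per the file headers they were background-subtracted by Feature Extraction (10.7.3.1). The authors also deposited log2 values of selected probes. Of these, 18 columns of per-array values were not used, and 1446 values that could be set against the scanner files lay within 0.05 of quantile-normalised signals.

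Spots flagged as outliers were left out, spots of a probe were averaged, and log2 signals were scaled to each array's 75th percentile. Of 30367 rat probes 9128 were not well above background on all arrays of any group and were left out. Of all rat probes 17514 were named through a RefSeq accession, 40 through the deposited list, and 12813 stayed without a symbol. limma 3.58.1 (R 4.3.3) was fitted to all 12 arrays by group (8 residual degrees of freedom), with Benjamini-Hochberg adjustment over all detected probes. Calls needed a fold of 2 and an unadjusted two-sided p under 0.05. An exact permutation test of 3 arrays against 3 cannot go below 0.1. The p-values measure the spread between these arrays, whose number limits the precision. Where a group had no array well above background for a probe, the fold is a lower bound. It is taken against the lowest signal well above background on each array or the probe's own signal where that was higher. The bound covers the background only and not the spread between arrays. Levels at 3 arrays (control 1 and 2 and NaHS 1) were stored with 3 digits, which moves a log2 value by at most 0.0072.

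The genes named were the 12 largest rises and falls measured on all 6 arrays without overlap, all genes with an adjusted p under 0.05, up to 6 called members (or, with none called, the 2 of highest signal) of each of 34 gene lists and 8 marker lists, and the genes the study named. A gene that the rule names is not reported here. Further members of the lists were named after their values were seen. The lists and this rule were chosen with earlier results of these data known. Alternatives covered the scaling, background correction, filter, arrays fitted, slide, pairing and test.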

Additional observations from a re-analysis of the deposited data

How the results depend on the processing

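None of the 69 called genes named changed direction under any alternative. With normexp background correction 254 probes were called (67 higher, 187 lower, 13 after adjustment), and 25 of the 69 genes lost their call. Higher calls were 26.4% of the calls there, 57.3% with quantile normalisation, 64.8% with slide as a block and 48.7% as reported. A filter that asked for all 12 arrays above background gave 155 higher and 241 lower calls (39.1% higher). Asking for 1 array gave 963 calls (663 lower, 31.2% higher, 1 after adjustment), and no filter gave 1258 (955 lower, 24.1% higher, 1 after adjustment). Slide as a block, or leaving out control array 3, gave 145 lower calls, and 23 of the 69 genes lost their call. The methods' t-test called 279 probes (145 higher, 134 lower), with 2346 at an unadjusted p under 0.05 and 0 after adjustment, and 24 of the 69 genes lost their call. Fitting only the 6 arrays left 0 after adjustment in limma, with 2551 at an unadjusted p under 0.05. Counting genes in place of probes gave 335 calls (175 higher, 160 lower).

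Leaving out 1 of the 6 arrays moved the calls between 412 (without control array 3) and 1228 (without control array 2), the higher calls between 251 and 496, the lower calls between 145 and 732, and the probes passing after adjustment between 0 and 103. Without control array 1 there were 972 calls and 11 after adjustment. Without NaHS array 1, 2 or 3 there were 0, 0 and 1 after adjustment, and 12, 11 and 7 of the 69 genes lost their call. Of the 69 genes 36 were called in all 6 of these fits. Leaving out an array of the other groups, and a 75th percentile over spots, were chosen after seeing the data. Without CS + LPS array 1, 2 or 3 the probes passing after adjustment were 21, 6 and 1, and without CS + LPS + PPG array 1, 2 or 3 they were 1, 1 and 12, so genes that rest on adjustment alone depend on the arrays that set the shared spread.

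With a replicate block 569 probes were called and 2 passed after adjustment. The deviations of same-numbered control and NaHS arrays correlated at 0.14, -0.12 and 0.08, so the numbers do not pair the samples. The cause of these shifts was not tested, and for probes near background the fold is limited by the background.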
